A study of Rattus norvegicus with 8 samples.

Results

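The salt-inducible kinases Sik1 and Sik2 were followed in PC12 cells, a line grown from a rat tumour of the adrenal medulla, with and without forskolin. Their probe sets were found by gene symbol: 4 of the 31142 probe sets on chips A and B, with 2 for Sik1 (both on chip A) and 2 for Sik2 (1 on each chip). Total RNA was measured on 4 arrays of each chip, 2 labelled forskolin and 2 labelled no forskolin. Forskolin is a plant compound that activates adenylyl cyclase, and the series title calls its counterpart an inactive control; the labels state no dose, no exposure time and no vehicle. The labels do not say that the 2 replicates of a group were separate cultures, so the p-values measure only the spread between these arrays, which may be technical.

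Salt-inducible kinases are serine/threonine kinases related to AMPK and switched on by the kinase LKB1. When active, they phosphorylate the CREB coactivators of the CRTC family and the class IIa histone deacetylases, which are then held in the cytoplasm by adaptor proteins of the Ywha family. Protein kinase A, the main effector of cyclic AMP, phosphorylates the kinases in turn and blocks this action, so that the coactivators can enter the nucleus. Sik1 is itself known as a gene that CREB switches on, and it was cloned from the rat adrenal gland, whereas Sik2 is known as a more steadily expressed member of the family.

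The promoters of both genes are shown because cyclic AMP acts on genes through the cyclic AMP response element (CRE), which CREB binds. Given here are the 250 bases before the start site in RefSeq's GRCr8 assembly of the rat genome, on the gene's own strand. The Sik1 stretch is chr20:9958647-9958896, minus strand, and the Sik2 stretch is chr8:60221651-60221900, minus strand. RefSeq places the Sik1 gene at chr20:9947104-9958729 and the Sik2 gene at chr8:60121913-60221707, so the last bases of each stretch lie inside the annotated gene, upstream of the start site used here. Capitals mark the CRE half-site TGACG or its reverse complement CGTCA, which covers both strands.
Sik1: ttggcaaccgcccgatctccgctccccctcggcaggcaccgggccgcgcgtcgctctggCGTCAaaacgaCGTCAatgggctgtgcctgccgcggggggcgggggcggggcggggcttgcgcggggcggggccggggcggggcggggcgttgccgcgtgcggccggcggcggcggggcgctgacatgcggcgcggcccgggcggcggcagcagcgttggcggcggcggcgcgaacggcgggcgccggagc
Sik2: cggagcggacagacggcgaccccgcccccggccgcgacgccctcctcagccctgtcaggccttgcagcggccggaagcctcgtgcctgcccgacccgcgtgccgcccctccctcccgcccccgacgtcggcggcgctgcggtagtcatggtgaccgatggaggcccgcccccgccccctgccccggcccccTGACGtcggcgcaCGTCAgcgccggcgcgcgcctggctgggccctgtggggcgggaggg
Neither stretch held the full palindromic CRE, TGACGTCA, which contains both half-site spellings and was found in 1.59% of 33469 rat promoters of this length. Each held 2 half-sites. In Sik1 they began at -191 and -180, counted from the start site, and in Sik2 at -59 and -46. Both Sik1 half-sites lay upstream of the annotated gene. The Sik2 half-site at -59 lay across the edge of the annotated gene, and the one at -46 lay inside it. At least 1 half-site was found in 18.2% of all promoters, and 2 or more in 3.98%. Both stretches were rich in G and C, with 82.8% in Sik1 and 80.4% in Sik2, against a median of 51.2% over all promoters. A match to these letters is a description of the sequence and does not show that a factor binds there.

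Sik1 RNA was higher with forskolin on both of its probe sets. The brighter one, 1368596_at, had 11.11 and 11.08 on the forskolin arrays, against 8.58 and 8.47 on the arrays without forskolin (log2 of the deposited value). Both forskolin arrays were far above both control arrays, and the groups did not overlap. On a linear scale the same values were 2209 and 2158 units with forskolin and 382 and 354 units without. The log2 change was 2.57 ± 0.05 (limma, SE, n = 2 arrays per group), a 5.94-fold rise with a 95% interval of 5.52 to 6.39 (adjusted p = 1.96e-08). Only 5 of the 11106 tested probe sets of chip A had a larger rise. Calls by limma, at the threshold of adjusted p under 0.05 used throughout, were 2.03% of those probe sets upward and 1.26% downward. RNA came from whole cultures, so more cells with Sik1 RNA and more Sik1 RNA per cell cannot be told apart.

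**Figure D1:**
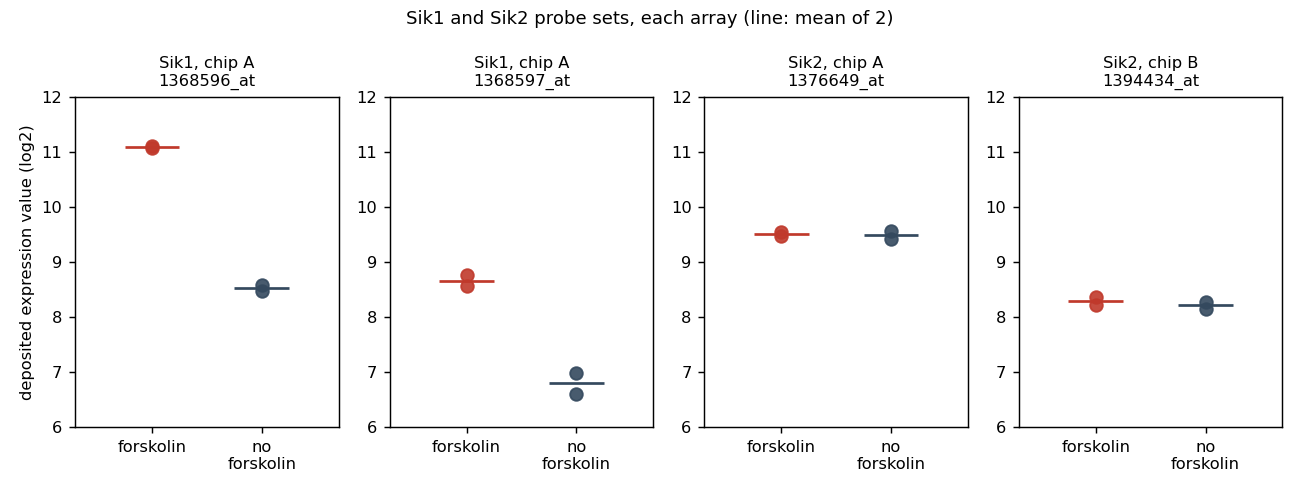
Deposited log2 expression value (vertical axis) of the 4 Sik1 and Sik2 probe sets on each array with forskolin (left, red) and without (right, dark); points are arrays and lines are means of 2. Both Sik1 probe sets lie higher with forskolin, while the arrays of the groups overlap for both Sik2 probe sets. Heights are not comparable between panels, since probe sets differ in brightness for the same amount of RNA.

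The dimmer Sik1 probe set, 1368597_at, had 8.76 and 8.57 on the forskolin arrays, against 6.98 and 6.61 on the arrays without forskolin (log2). Again the groups did not overlap, and the control arrays stood 0.37 apart, wider than the 0.19 between the forskolin arrays. It rose by 1.87 ± 0.11 (log2, limma, SE, n = 2), or 3.65-fold with a 95% interval of 3.05 to 4.35 (adjusted p = 2.42e-05). Without forskolin its mean of 6.80 lay under the lowest mean level that the filter on dim probe sets kept on chip A (7.02), so it passed the filter only through its forskolin arrays. How far such a level lies above background is not known here, and the size of this rise is uncertain for that reason.

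Seen against the rest of the chip, the brighter Sik1 probe set had 95.2% of all probe sets below its mean with forskolin and 56.5% below its mean without. For the dimmer one the same shares were 59.3% with forskolin and 26.7% without. These ranks rest on the authors' scaling.

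The probe sets of Sik1 had the same direction of change but different measured sizes, and the chip annotation gives both the same source sequence. Within each array the brighter probe set exceeded the dimmer one by 2.35 and 2.50 with forskolin, against 1.59 and 1.85 without (log2). The groups did not overlap in this difference either. The measured changes differed by 0.70 ± 0.07 (log2, limma over all pairs of tested probe sets of the same gene, SE, n = 2, 95% interval 0.55 to 0.86, adjusted p = 2.19e-08). Of 1592 such pairs on chip A, limma called 24, or 1.51%, and 207 had an unadjusted p under 0.05; the median size of a difference was 0.05. In 4 of the pairs the difference was larger than in Sik1. The Sik1 pair entered only because its dimmer probe set passed the filter through its forskolin arrays. Its rank and p-value are therefore no independent support for a difference. Since the level of the dimmer probe set without forskolin (6.80) lay under the filter level of 7.02 and may not be above background, the difference is one of measured values and does not show that the transcript responded unequally. Probe sets of 1 gene share their RNA and are not replicates of the treatment.

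**Figure D2:**
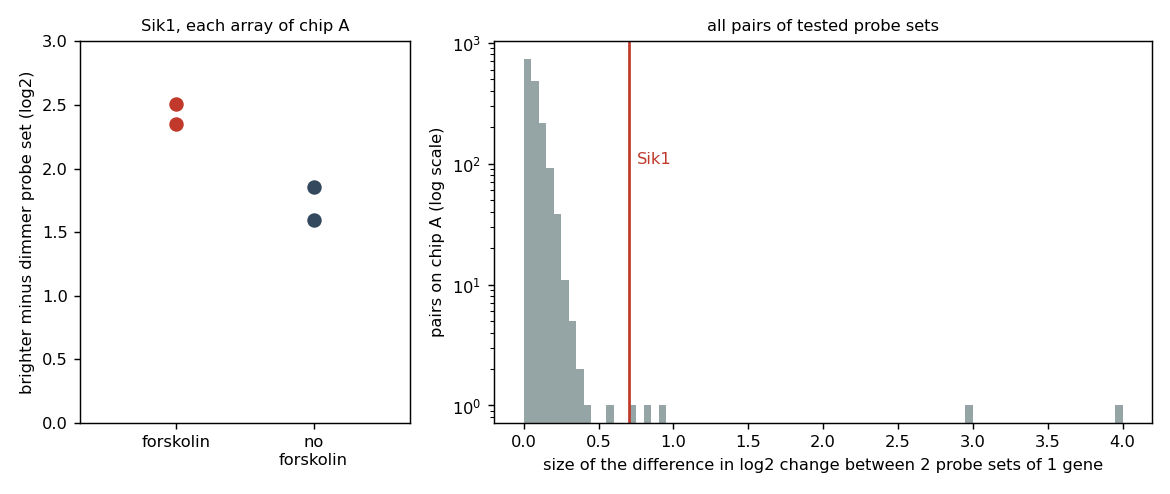
Left, the brighter minus the dimmer Sik1 probe set within each array of chip A (log2), with forskolin (red) and without (dark). Right, the size of the difference in log2 change for all 1592 pairs of tested probe sets of the same gene on chip A, on a logarithmic count axis, with Sik1 at 0.70 marked by the line.

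The probe sets of a gene were not always called together on this chip. Of 996 genes with exactly 2 tested probe sets on chip A, 41 had at least 1 called higher, and in 22 of them, Sik1 among these, both were called higher. Sik1 entered this count only because its dimmer probe set passed the filter through its forskolin arrays. Its place there is therefore no independent support for agreement. The remaining 19 genes had a call on 1 probe set only.

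Sik2 RNA was not called different on either chip. On chip A, probe set 1376649_at had 9.54 and 9.48 with forskolin, against 9.42 and 9.55 without (log2). Both forskolin values lay between the control values. The log2 change was 0.02 ± 0.05 (limma, SE, n = 2, adjusted p = 0.868), with a 95% interval of -0.10 to 0.14, which as a fold runs from 0.935 to 1.11. In size, 27.7% of the tested probe sets of chip A had a smaller change than this.

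On chip B, probe set 1394434_at had 8.22 and 8.37 with forskolin, against 8.27 and 8.16 without (log2). The groups overlapped here too. The log2 change was 0.09 ± 0.09 (limma, SE, n = 2, adjusted p = 1), with a 95% interval of -0.13 to 0.30 and a fold between 0.914 and 1.23. Chip B was the less precise chip, with a median SE of 0.089 over all tested probe sets, against 0.045 on chip A, and limma called 0.150% of its 10693 tested probe sets higher and 0.00935% lower. The 2 chips come in separate tables with different array medians, so their Sik2 levels are not on the same scale. A change of Sik2 the size of that of Sik1 lay outside both intervals, whereas a change within them was not detectable with 2 arrays per group.

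Both Sik2 probe sets lay in the brighter part of their chip, with forskolin and without. The probe set on chip A was brighter than 76.3% of all probe sets with forskolin and 75.8% without. That on chip B was brighter than 84.98% with forskolin and 83.3% without. These ranks describe brightness on the chip and do not say which of the kinases had more RNA.

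Sik1 and Sik2 were set against each other within the arrays of chip A. The brighter Sik1 probe set minus the Sik2 probe set was 1.57 and 1.60 with forskolin, against -0.84 and -1.09 without (log2), so the change in Sik1 exceeded that in Sik2 by 2.55. For the dimmer Sik1 probe set the difference was -0.78 and -0.91 with forskolin, against -2.43 and -2.94 without, and its change exceeded that of Sik2 by 1.84. The groups did not overlap in either case. The two-sided exact permutation test gave p = 0.3333 for each, which is the smallest value that 2 against 2 arrays allow. Limma's 95% intervals, 2.46 to 2.68 for the brighter Sik1 probe set and -0.10 to 0.14 for Sik2, did not overlap.

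Sik3, the other member of the family, was measured once on each chip. It had 8.50 and 8.48 with forskolin, against 8.53 and 8.64 without, on chip A (log2). Its log2 change was -0.10 ± 0.05 there (limma, SE, n = 2, 95% interval -0.21 to 0.02, adjusted p = 0.354). On chip B it had 7.82 and 7.77 with forskolin, against 7.85 and 7.90 without, a log2 change of -0.09 ± 0.08 (adjusted p = 0.999). Both forskolin arrays lay below both control arrays on each chip, but limma called neither difference. Such separation is common without any change when 2 arrays are set against 2. For Sik1 minus Sik2 the same separation gave p = 0.3333 in the exact permutation test. Its share over all probe sets was not counted, for Sik3 or for the non-overlapping Sik1 values above. The labels do not say whether the chips received the same RNA, so they are not taken as independent. Of the family, limma called Sik1 only.

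The genes whose profiles were most like that of Sik1 were ranked over the 4 arrays of chip A. Each profile had its mean without forskolin subtracted, and likeness was the root mean square difference from the brighter Sik1 probe set, among 284 genes called by limma. Each gene entered through its called probe set with the smallest p. Nr4a1, an orphan nuclear receptor, was the closest at 0.19 (log2). Its values were 10.89 and 11.06 with forskolin, against 8.11 and 8.30 without. Next were Nr4a2, of the same receptor family, at 0.43, Id3, which blocks DNA binding by helix-loop-helix factors, at 0.46, Dusp1, a MAP kinase phosphatase, at 0.48, and the zinc finger factor Klf4 at 0.54. With 2 arrays in each group, this ranking mostly orders genes by how close the size of their rise came to that of Sik1 (5.94-fold). The rise was 6.82-fold for Nr4a1 and 9.48-fold for Dusp1, and it was 3.94-fold for Nr4a2 on this probe set, 3.79-fold for Id3 and 3.497-fold for Klf4. Nr4a2 had a second, brighter probe set, which rose 5.02-fold. With each gene taken through its brightest called probe set instead, an alternative chosen after seeing the data, Nr4a2 (0.192) and Nr4a1 (0.193) were about equally close to Sik1, and the other 3 genes kept their places. Both Nr4a2 probe sets (6.02 and 6.62) averaged under the filter level of 7.02 without forskolin, so the size of its rise is uncertain.

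**Figure D3:**
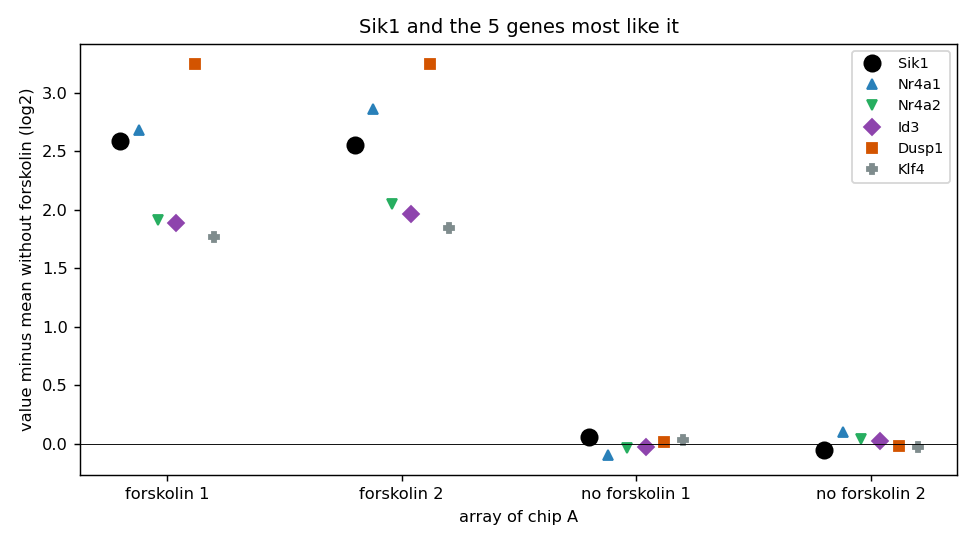
Expression value minus the gene's mean without forskolin (log2, vertical axis) on each of the 4 arrays of chip A for the brighter Sik1 probe set and the 5 genes most like it. Each gene is shown by its called probe set with the smallest p. Nr4a1 lies closest to Sik1, Dusp1 lies above both and the other 3 genes lie below.

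The kinases and partners around Sik1 and Sik2 were mostly not called. The lists hold 54 genes upstream of the salt-inducible kinases, related to them, bound by them or acting with their substrates. Each gene was represented by 1 tested probe set, the brightest of those on chip A, or of those on chip B where chip A had none. Of the 47 that passed the filter, limma called 2 higher and none lower, against 2.03% and 1.26% of all tested probe sets of chip A, and 0.150% and 0.00935% of those of chip B. Before adjustment, 3 had p under 0.05 upward and 1 downward, against 7.10% upward and 10.3% downward over chip A and 1.64% upward and 3.33% downward over chip B. The median log2 change of these 47 genes was -0.01, as it was over all tested probe sets of chip A (-0.01), with -0.03 over those of chip B.

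Upstream, none of the 5 tested genes of the LKB1 complex was called by limma, and none had an unadjusted p under 0.05. Stk11, which encodes LKB1, measured 0.02 (log2, forskolin minus no forskolin). Cab39 and Cab39l, scaffold proteins of the complex, measured -0.05 on chip A and -0.15 on chip B. Of 12 tested AMPK-related kinases none was called, with 1 higher at an unadjusted p under 0.05. That was Prkaa2, a catalytic subunit of AMPK, with a log2 change of 0.15 ± 0.04 (limma, SE, n = 2, adjusted p = 0.131). In log2 change the 12 kinases ranged from -0.23 to 0.15.

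Of 8 tested protein kinase A subunits and inhibitors none was called by limma, and 1 was lower at an unadjusted p under 0.05. Prkar2a, a regulatory subunit, measured -0.10 (log2, adjusted p = 0.214) and Prkacb, a catalytic subunit, -0.07 (adjusted p = 0.336). Pkib lay under the filter and was not tested.

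Among the substrates of the salt-inducible kinases, 5 genes were tested, none was called by limma and none had an unadjusted p under 0.05. The CRTC coactivators Crtc2 and Crtc3 measured -0.08 and 0.06 (log2) on chip A, and a Crtc3 probe set on chip B measured -0.25 (adjusted p = 0.907). The class IIa histone deacetylases Hdac4, Hdac5 and Hdac7 measured 0.03, -0.03 and -0.04. None of 3 tested calcineurin subunits, which make up a phosphatase acting on the CRTC proteins, was called, and none of 6 tested Ywha adaptor proteins; neither list had an unadjusted p under 0.05. The calcineurin subunits Ppp3cb and Ppp3r1 measured -0.03 and -0.01, and the adaptors Ywhah and Ywhab 0.03 and -0.03. No probe set with only the symbol Crtc1 was found.

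The 2 calls lay among transcription factors. Of 3 tested MEF2 factors, on which class IIa histone deacetylases act, Mef2d rose. It had 9.59 and 9.64 with forskolin, against 9.39 and 9.29 without (log2), a change of 0.27 ± 0.05 (limma, SE, n = 2, adjusted p = 0.0147), or 1.21-fold. Its other tested probe set was dimmer and rose by 0.53 (adjusted p = 0.0147). The call on the brighter Mef2d probe set was lost without forskolin replicate 2 (adjusted p = 0.0742). Mef2a, on chip B, measured 0.04. Of 5 tested CREB factors and coactivators, Crem, a CREB relative whose products turn cyclic AMP targets up or down, rose by 0.88 ± 0.05 (log2, adjusted p = 2.87e-05) on chip A. The brighter of its 2 tested probe sets on chip B rose by 2.49 (log2, limma adjusted p = 1.93e-04). Ep300, a coactivator that binds CREB, measured 0.09.

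Known CREB target genes formed the list in which calls were frequent. These genes were chosen with their response in these arrays known, so the count describes the list and is no independent evidence. Over all tested probe sets of chip A, limma called 2.03% higher and 1.26% lower, with a median log2 change of -0.01. Of the 16 list genes tested, limma called 11 higher and none lower, with a median log2 change of 0.75. By smallest p, the first were Dusp1 (3.24), Junb (1.61), Nr4a1 (2.77), Nr4a2 (2.33 on its brightest probe set), Egr1 (1.16) and Rgs2 (1.46). On its brighter probe set Sik1 (2.57) lay between Nr4a2 and Nr4a1 in log2 change. The brightest Fos probe set measured 0.06 and was not called, while its other one rose by 4.03 (limma adjusted p = 1.96e-08). Nr4a2 (6.62), Rgs2 (6.68), Pde4b (7.01) and this other Fos probe set (5.22) averaged under the filter level of 7.02 without forskolin. They passed it through their forskolin arrays, so the sizes of their rises are uncertain. Nr4a2, Rgs2 and Pde4b are among the 11 called, so that count and the median rest partly on genes that entered this way.

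**Figure D4:**
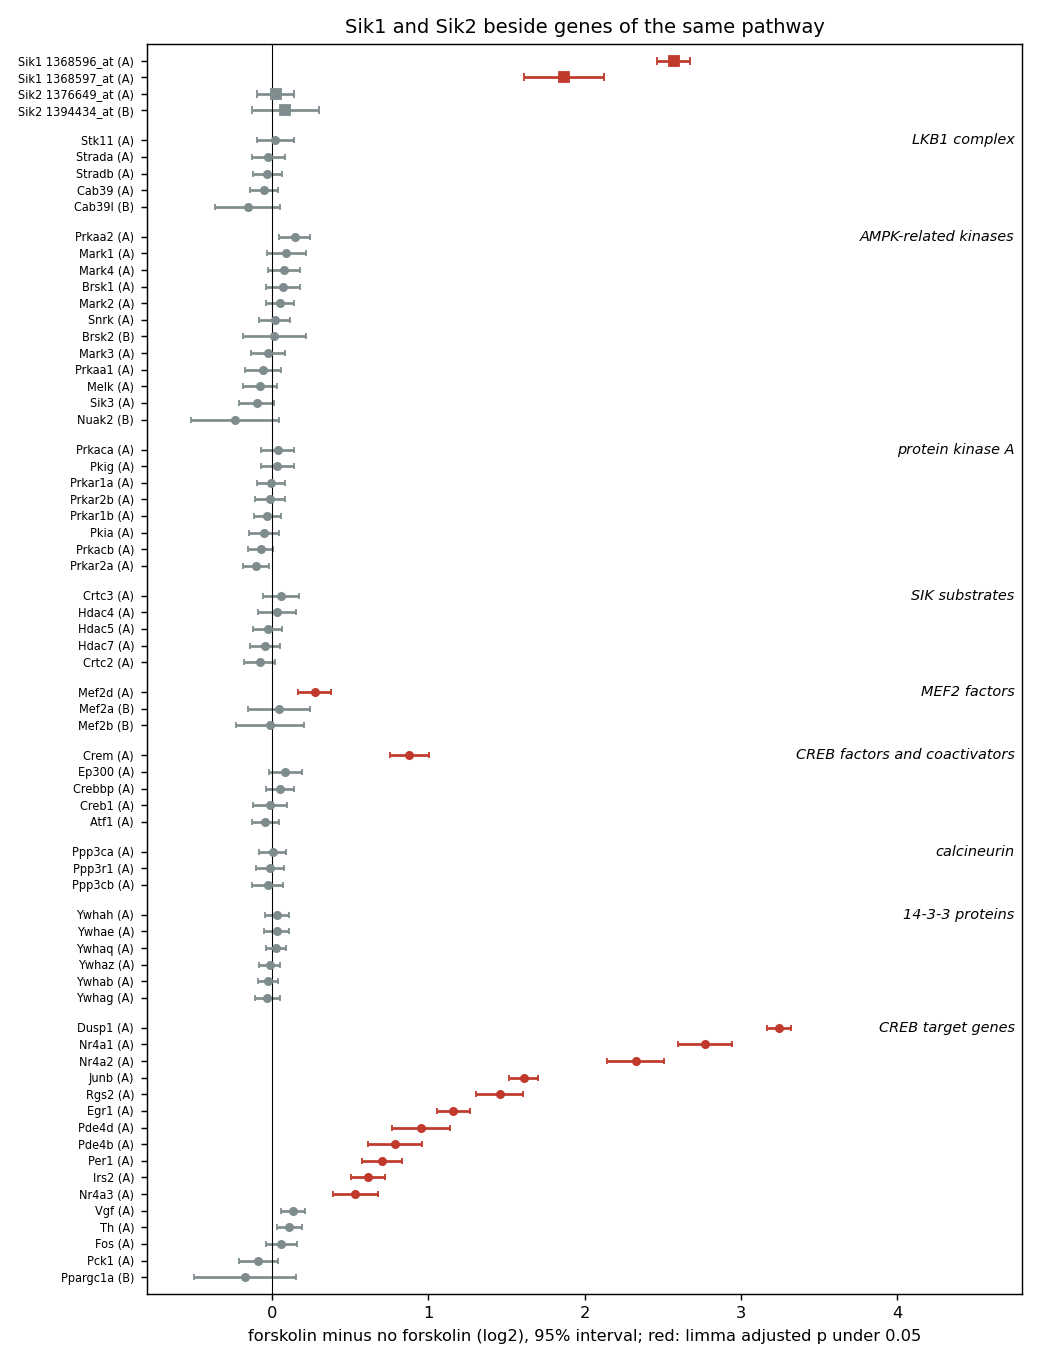
Forskolin minus no forskolin (log2, horizontal axis) with limma's 95% interval for the Sik1 and Sik2 probe sets (squares) and the tested genes of each list (circles, brightest tested probe set on chip A or else on chip B, chip in brackets); red marks an adjusted p under 0.05. Red points are the 2 Sik1 probe sets, Mef2d, Crem and 11 CREB target genes.

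The cell type and the chips were checked with a few further values. Of 17 markers of PC12 and chromaffin cells 13 were tested, of which limma called 2 higher, the transcription factors Gata2 (log2 change 1.35, adjusted p = 6.50e-07) and Phox2a (0.41, adjusted p = 1.02e-04), and none lower. At an unadjusted p, 7 were under 0.05 upward and 1 downward. Among all tested probe sets, the upward share under 0.05 was 7.10% on chip A and 1.64% on chip B. The downward shares were 10.3% and 3.33%. After adjustment, 2.03% of chip A lay upward and 1.26% downward, with 0.150% and 0.00935% for chip B. Upward changes were thus more frequent among these 13 markers than over either chip. The part of these markers in the Sik1 result was not tested. Th, Chgb, Scg2 and Phox2a were each brighter than 97.5% or more of chip A without forskolin. By their brightest tested probe sets, Chga, Hand2, Gata2, Gata3 and Vgf were brighter than 72.2% to 95.7%. Cartpt was brighter than only 51.5%, Ddc than 39.8% and Ret than 30.4%. Dbh (6.88 with forskolin and 6.69 without, log2) and Slc18a1 (6.79 with forskolin and 6.90 without) lay under the filter. So did both Slc18a2 probe sets of chip A, while that on chip B was brighter than 46.6% of its chip. Of the markers of other cells (fibroblast, glial, adrenocortical, blood, endothelial), 10 were tested and limma called none, with 1 (Col1a1) higher at an unadjusted p under 0.05; their log2 changes ranged from -0.02 to 0.14. Col3a1, a fibroblast marker, was brighter than 98.0% of chip A, with a log2 change of 0.01. Array medians were 8.15 to 8.17 for chip A, and for chip B they were 6.77 to 6.79.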

How the data were processed

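The authors deposited 1 processed log2 expression value per probe set and array, in a table for each chip; the labels name no background correction, probe summary or scaling. The log2 base was inferred from the range of the deposited values. Array medians of a chip lay within 0.1 of each other, so no further scaling was applied. Probe sets whose mean linear value was under the 30th percentile of their chip were left out, which kept 11106 of the 15866 of chip A, and 10693 of the 15276 of chip B. All 4 Sik1 and Sik2 probe sets passed. Symbols came from the chip annotation, updated by Entrez gene number to RefSeq (GRCr8).

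The groups of a chip were compared by limma 3.58.1, run in R 4.3.3 (eBayes with an intensity trend, two-sided, Benjamini-Hochberg over all tested probe sets, or over all pairs of probe sets). The method was tested on simulated data with independent noise, sized by the spread between these same arrays. Such data cannot show whether the p-values hold beyond these arrays. No detection calls were used; the number of arrays limits the precision. Named list genes were the called members, up to the 6 smallest p, otherwise the 2 smallest p, with Sik3, Stk11 and the CRTC and class IIa HDAC genes. Genes named outside this rule (Col1a1, Col3a1, Fos, Pde4b, Pkib and the PC12 markers) were chosen after their values were seen. The members and lists were chosen with earlier results of these data known. Replicate numbers were not taken to pair arrays: deviations of same-numbered arrays correlated at r = 0.0034 on chip A and 0.197 on chip B across probe sets, and with 2 numbers per group this settles nothing. Alternatives were quantile normalization, median centring, no filter, a filter at the 50th percentile, eBayes without a trend, a replicate block and leaving out each array.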

Additional observations from a re-analysis of the deposited data

How the results depend on the processing

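Both Sik1 probe sets kept their rise and their call under every alternative that could test them, with log2 changes of 2.51 to 2.63 and 1.68 to 2.05 and adjusted p of at most 3.16e-05 and 3.01e-04 (limma). The filter at the 50th percentile removed the dimmer one. In the others, save the run with no filter, it was tested only through its forskolin arrays. Its held call, and that of the difference between the probe sets, are therefore no independent support. The difference between them was called under the 7 alternatives run for it (0.57 to 0.84), which did not include median centring, the stricter filter or the replicate block. Sik1 minus Sik2 ranged over 2.42 to 2.67 and 1.59 to 2.10. Sik2 was called under no alternative; leaving out 1 array moved it between -0.0446 and 0.0924 on chip A, where its sign turned without forskolin replicate 1 (-0.00688) and with no forskolin replicate 1 left out, and between 0.0077 and 0.163 on chip B.

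Counts of lower probe sets on chip A (140) were 277 with median centring, 46 with the replicate block and 83 to 192 leaving out 1 array, with 83 lacking forskolin replicate 1 and 85 lacking forskolin replicate 2. Higher ones (226) were 168 to 257 leaving out 1 array, 300 with median centring and 159 with the block. On chip B, higher (16) and lower (1) counts were 27 and 3 under quantile normalization, 15 and 2 with the block, and 10 to 41 and 0 to 57 leaving out 1 array. They were 12 and 0 lacking forskolin replicate 1, 10 and 1 lacking forskolin replicate 2, 37 and 57 lacking no forskolin replicate 1, and 41 and 5 lacking no forskolin replicate 2. The causes were not tested.

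With the replicate block the log2 changes were unchanged by construction, and both Sik1 calls held (adjusted p = 3.16e-05 and 3.01e-04), while Mef2d was not called (0.27, adjusted p = 0.0816). Uncalled genes near 0 changed sign when 1 array was left out, with ranges of -0.0181 to 0.0850 for Hdac4, -0.0263 to 0.114 for Mef2a, -0.0741 to 0.0204 for Ppp3cb, -0.0522 to 0.0278 for Ppp3r1, -0.00495 to 0.0519 for Stk11 and -0.0040 to 0.0687 for Ywhah. Stk11 was also -0.0040 under quantile normalization. By the brightest probe sets, chosen after seeing the data, the distance of Nr4a2 from Sik1 was 0.192 in place of 0.429. The remaining alternatives for named list genes, 245 of 256, left direction and call as reported. With 2 arrays per group, small changes of Sik2 cannot be told from none.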
